A study of Mus musculus with 19 samples.

Results

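Hair cells are the sensory receptors of the inner ear, and 36 genes of hair cells and of their stereocilia were followed through 19 RNA sequencing libraries of the mouse cochlea. The members were given as a list of gene symbols and matched to the symbol column of the deposited gene table; all 36 were found among its 18639 genes. The rule uses no measured value, but the list was drawn up with earlier results of these data known. By role the list holds 4 transcription factors, 2 inner hair cell genes, 4 outer hair cell genes, 6 genes of the transduction channel complex, 8 tip link and Usher genes, 9 genes of the stereocilia actin core and rootlet, and 3 genes of bundle links and membrane.

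The study sorted dissociated cochlear cells by green fluorescent protein (GFP) and compared young with old mice. Every mouse carried 1 copy of Cx3cr1, a chemokine receptor gene of macrophages, replaced by GFP (CX3CR1 GFP/+), so all groups share 1 intact copy of that gene and no group is wild type. GFP-positive cells are called macrophages here and GFP-negative cells nonmacrophages, which pool all other cochlear cells. Whole cochleae of mice aged 12 to 14 months gave 4 macrophage and 4 nonmacrophage libraries, and whole cochleae of mice aged 1.5 months gave 2 macrophage, 4 nonmacrophage and 1 unsorted library. From young mice the auditory nerve was dissected for 1 library of each sort, and the lateral wall for another of each. Each isolate came from 1 mouse, and none was enriched for hair cells. Libraries are named by the numbers in their labels, and values are listed in the order of replicates 1, 7, 12 and 17 for old macrophages, 9 and 15 for young macrophages, 10, 11, 18 and 19 for old nonmacrophages and 2, 5, 6 and 14 for young nonmacrophages.

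Sound bends the hair bundle, a staircase of actin-filled stereocilia on each hair cell. Tip links between neighbouring stereocilia then pull on a channel complex that contains TMC proteins, and the cell depolarises. Inner hair cells pass the signal to the auditory nerve by releasing glutamate. Outer hair cells amplify the vibration with the motor protein prestin and are controlled by efferent nerve fibres through a nicotinic receptor. Hair cells are few in the mammalian cochlea, and those lost in adult life are not replaced.

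Promoter sequence is shown for 3 members that were higher in old than in young nonmacrophages, Tmc1, Chrna9 and Myo15, and for Slc26a5, whose level in the unsorted library went against theirs. The sequences are from RefSeq (build GRCm38.p6, the mm10 assembly), which held a promoter for 28 of the 36 members. Each is the 250 bases before the start of the transcript, read 5′ to 3′ on the strand of the gene, and capitals mark an E-box, the letters CAGCTG or CAGATG on either strand, to which the hair cell factor ATOH1 and related proteins can bind.
Tmc1: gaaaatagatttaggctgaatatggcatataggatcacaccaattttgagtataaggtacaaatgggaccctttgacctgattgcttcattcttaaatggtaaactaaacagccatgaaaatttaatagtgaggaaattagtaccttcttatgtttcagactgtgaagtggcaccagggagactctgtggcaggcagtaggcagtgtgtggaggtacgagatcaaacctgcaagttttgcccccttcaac
Chrna9: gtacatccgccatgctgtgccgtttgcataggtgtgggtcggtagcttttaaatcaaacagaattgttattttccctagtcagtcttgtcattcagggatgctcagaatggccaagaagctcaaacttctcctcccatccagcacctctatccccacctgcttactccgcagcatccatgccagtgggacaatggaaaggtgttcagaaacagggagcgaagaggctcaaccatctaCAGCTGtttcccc
Myo15: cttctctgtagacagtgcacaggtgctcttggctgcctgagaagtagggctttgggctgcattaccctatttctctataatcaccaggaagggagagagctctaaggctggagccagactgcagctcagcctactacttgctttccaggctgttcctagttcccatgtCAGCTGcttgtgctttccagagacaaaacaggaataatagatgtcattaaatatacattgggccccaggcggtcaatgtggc
Slc26a5: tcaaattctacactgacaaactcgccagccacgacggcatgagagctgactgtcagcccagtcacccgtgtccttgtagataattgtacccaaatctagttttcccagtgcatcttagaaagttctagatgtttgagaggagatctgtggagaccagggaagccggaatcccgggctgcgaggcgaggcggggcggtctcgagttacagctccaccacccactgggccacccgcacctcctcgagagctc
The first window is chr19:20954203-20954452 (minus strand), the second chr5:65966874-65967123 (plus strand), the third chr11:60469089-60469338 (plus strand) and the fourth chr5:21865605-21865854 (minus strand). None of them overlaps an annotated exon, and that of Chrna9 lies in an intron of longer transcripts of the same gene. The E-box lies 13 bases before the start of Chrna9 and 82 bases before that of Myo15. Such letters stood in 10 of the members' 36 promoters (27.8%) and in 25.5% of all promoters of that length in the table, so the match is a description of these windows.

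Total depth lay between 20.6 and 71.6 M (mega) reads assigned to genes per library, and depth nearly coincided with age: 50.6 to 71.6 M reads in old libraries and 24.9 to 35.1 M reads in sorted young whole cochleae, with young nonmacrophage replicate 14 apart at 60.2 M reads. The 2 young macrophage libraries stood apart as sparse, with reads in 11652 and 13532 genes against 16750 to 17282 in old macrophages, while the unsorted library reached 17468 genes from the lowest depth. As a check of the GFP sort, Csf1r, a macrophage growth factor receptor, stood at 43633, 61252, 54047 and 36782 normalized reads in old macrophages. In old nonmacrophages Csf1r stood at 159, 193, 383 and 345. Snap25, a synaptic gene of neurons, was higher in the macrophage sort, with 143367, 140741, 152752 and 155783 in old macrophages and 3190.3, 6325, 4746 and 4252 in old nonmacrophages. A normalized read is a read divided by a factor of its library, and 3 reads are worth 1.38 to 5.33 normalized reads. Labels do not say which libraries were sequenced a second time. The strand setting of the counting is not given in the sources used here. Exons of 8 members (Gfi1, Lhx3, Cib2, Tomt, Ush1c, Triobp, Eps8l2 and Strc) overlap a gene on the opposite strand. Reads in the shared bases then cannot be told apart. The shared part was 1825 of 2857 exon bases for Tomt, 1304 of 3191 for Eps8l2 and 227 of 1433 for Cib2. For the rest it ran from 10 of 5756 for Strc to 188 of 2415 for Lhx3.

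The number of members with any read followed the group. It was 35 or 36 of 36 in old nonmacrophages and 32 to 35 in old macrophages, and it was 18, 20, 28 and 32 in young nonmacrophages and 10 and 16 in young macrophages. The unsorted young library held 35 members. With every library brought to 20 M reads, the expected number with a read was 35.0 to 36 in old nonmacrophages, 29.7 to 34.4 in old macrophages, 16.4 to 31 in young nonmacrophages, 9.53 and 15.4 in young macrophages, and 35.0 in the unsorted library. At matched depth the young macrophages were still lowest and the old nonmacrophages highest beside the unsorted library, and young nonmacrophages overlapped with old macrophages through replicate 14. In both young macrophage libraries 18 members had no read, among them Otof, Tmc1, Pou4f3 and Strc, and Atoh1, Pou4f3 and Myo3a had none in any young nonmacrophage library. In bulk samples, fewer hair cells and less RNA per hair cell cannot be told apart.

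**Figure D1:**
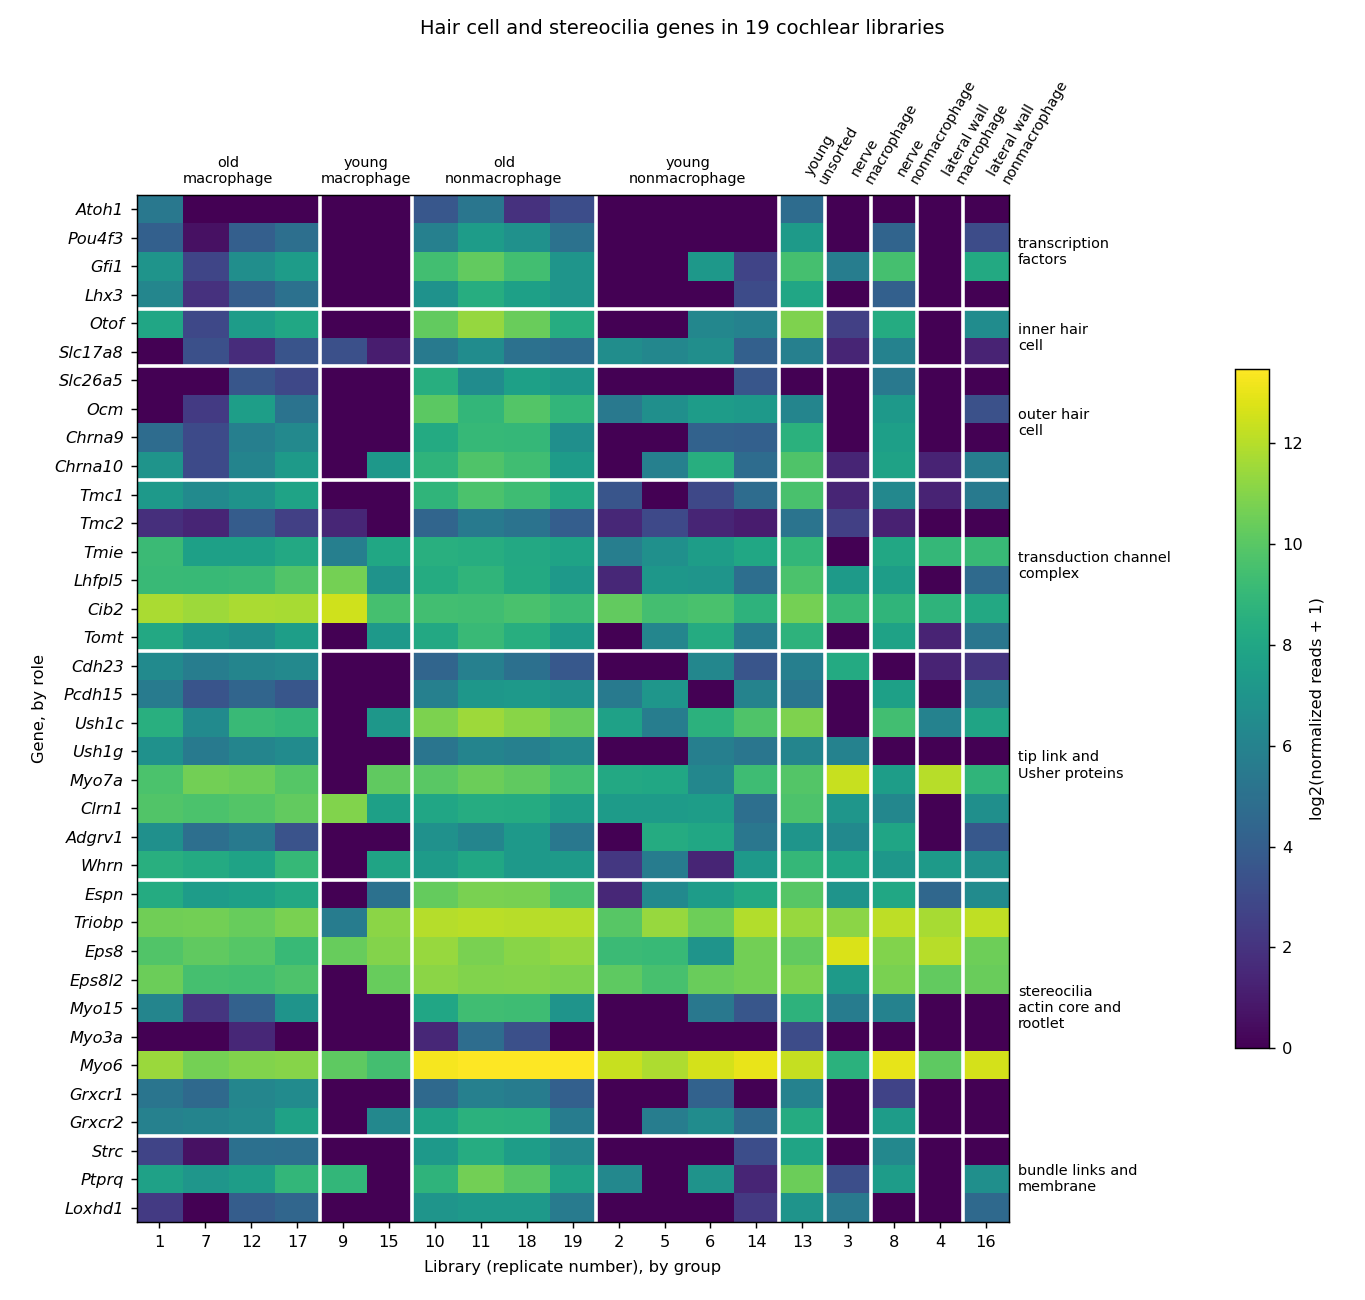
Log2(normalized reads + 1) of the 36 members (rows, by role) in the 19 libraries (columns, by group, with replicate numbers). Dark columns are the 2 young macrophage libraries with 10 and 16 members read and the lateral wall macrophage library with 14, and the bright rows Myo6, Triobp and Eps8 are read in every library.

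Levels spread widely among members. Per kilobase of exon, the highest levels in old nonmacrophages were those of Myo6 (mean 1364, range 1249 to 1426), a minus-end-directed myosin at the stereocilia base, and of Ocm (1128, range 711 to 1633), the outer hair cell calcium buffer oncomodulin. These 2 ranges overlapped. Eps8l2, an actin regulator at stereocilia tips, followed at 623 (range 569.8 to 692) and Ush1c, the scaffold harmonin, at 615 (range 399.6 to 877), whose range reached into that of Ocm. The lowest level per kilobase was that of Myo3a (1.85), a myosin of stereocilia tips. Myo7a, a motor of the tip link complex, was highest in the sorted macrophages of dissected tissue, at 5268 normalized reads in nerve macrophages and 4226 in lateral wall macrophages against 1028, 1385, 1143 and 681 in old nonmacrophages. Eps8, a relative of Eps8l2, stood at 6799.8 and 4167 in those same 2 libraries. For both genes these were the highest values of the 19 libraries.

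The first comparison set the unsorted young cochlea against the sorted young ones, to ask how hair cell transcripts of the undivided tissue compare with those of the sorted cells. Of the 36 members 19 were at least 2-fold above the highest of the 6 sorted young whole-cochlea libraries on the log2(value + 1) scale, where 6.37% of all genes were, and 23 were above all 6. All 4 transcription factors, 2 of 6 transduction genes, 5 of 9 actin core genes and all 3 bundle link genes were among the 19. So were 1 of 2 inner and 2 of 4 outer hair cell genes, and 2 of 8 tip link and Usher genes (Ush1c and Whrn). Of these 8 Usher and tip link genes 3 were above all 6 sorted libraries. Their median log2 difference from the highest sorted library was −0.36. With 1 unsorted library there is no test, and the values describe that library.

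Among transcription factors, Pou4f3 (mm10, chromosome 18, 42394539 to 42397249, plus strand), a factor hair cells need to survive, had 159 normalized reads unsorted and no read in the 6 sorted young whole-cochlea libraries; of the 4 sorted libraries of dissected young tissue, the nerve nonmacrophages had 19.6 and the lateral wall nonmacrophages 7.65. Gfi1 (chromosome 5, 107716657 to 107726036, minus strand), a zinc-finger repressor that acts with it, had 729 unsorted, 0, 0, 144 and 5.88 in young nonmacrophages and no read in young macrophages. Lhx3 (chromosome 2, 26200212 to 26208289, minus strand), a LIM homeobox factor, had 246 unsorted, 7.49 in nonmacrophage replicate 14, no read in the other sorted whole-cochlea libraries and 16.8 in the nerve nonmacrophages. Atoh1, which starts hair cell development and is normally silent in the mature cochlea, had 26.0 unsorted and no read in the 6 sorted whole-cochlea libraries. For all 4 genes the unsorted value lay within the range of the old nonmacrophages.

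Among inner hair cell genes the pair split. Otof (chromosome 5, 30367062 to 30461932, minus strand), the calcium sensor otoferlin of transmitter release, had 1864 normalized reads unsorted against 0, 0, 73.4 and 62.6 in young nonmacrophages and 0 in both macrophage libraries. Slc17a8 (chromosome 10, 89574020 to 89621253, minus strand), the vesicular glutamate transporter VGLUT3, had 58.1 unsorted against 97.8, 73.5, 99.5 and 16.6 in young nonmacrophages. So the unsorted Otof value was far above every sorted one, whereas that of Slc17a8 lay among the young nonmacrophages.

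Outer hair cell genes split as well. Chrna9 (chromosome 5, 65934921 to 65977326, plus strand), the alpha9 subunit of the efferent nicotinic receptor, had 385 unsorted against 0, 0, 17.9 and 16.6 in young nonmacrophages. Its partner subunit Chrna10 had 861 unsorted against 0, 57.2, 343 and 26.2. The motor gene Slc26a5 (chromosome 5, 21810655 to 21865604, minus strand), which encodes prestin, had no read in the unsorted library, which allows up to 4.59 normalized reads at 3 reads, and it had 0, 0, 0 and 11.2 in young nonmacrophages. Ocm (chromosome 5, 144019804 to 144026670, minus strand) had 68.8 unsorted against 42.7, 104, 171 and 150.3. Both receptor subunits were thus above all sorted young libraries, prestin was not detectable at this depth, and Ocm lay within the young nonmacrophages and below every old nonmacrophage.

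Of the transduction genes, the channel subunit gene Tmc1 (chromosome 19, 20783458 to 20954202, minus strand) had 783 unsorted against 10.7, 0, 6.53 and 26.2 in young nonmacrophages and 0 in both macrophage libraries. Tmc2, the subunit used early in development, had 35.2 against 1.78, 6.81, 1.63 and 1.07. Cib2 and Lhfpl5, 2 further components of the complex, were not above the sorted libraries: Cib2 had 1633 unsorted and 5859 and 715 in young macrophages, and Lhfpl5 had 813 and 1589 and 122. The highest sorted value of both was that of macrophage replicate 9, and the 2 macrophage libraries lay far apart.

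Of the stereocilia genes, Strc (chromosome 2, 121363728 to 121387168, minus strand), encoding stereocilin, which links the tops of neighbouring stereocilia, had 231 unsorted against 0, 0, 0 and 8.02 in young nonmacrophages. Loxhd1, a membrane-associated stereocilia protein gene, had 125 against 0, 0, 0 and 3.74, and Myo15 (chromosome 11, 60469339 to 60528369, plus strand), the motor that carries growth factors of the actin core to the tips, had 413 against 0, 0, 40.8 and 11.2. Espn (chromosome 4, 152120331 to 152152371, minus strand), the actin bundler espin, had 1008 against 1.78, 83.1, 173 and 290.4. In each of these 4 the unsorted library was above every sorted young library, and for Strc and Loxhd1 replicates 2, 5 and 6 had no read. The broadly read actin genes did not follow: Myo6 had 5006 unsorted against 5144, 3616, 6218 and 8372, and Triobp and Eps8 were also within the sorted young range.

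Set against old tissue, the unsorted young library lay within the range of the 4 old nonmacrophage libraries for 22 of 36 members, where 30.5% of all genes did. It was above that range for 7 (Chrna10, Tmie, Lhfpl5, Cib2, Clrn1, Whrn and Grxcr1) and below it for 7 (Slc26a5, Ocm, Pcdh15, Triobp, Eps8, Eps8l2 and Myo6). Neuron markers also stood higher unsorted: the summed level of 12 spiral ganglion neuron markers was 301158 normalized reads, against 6094 to 35521 in young nonmacrophages and 177937 and 259685 in young macrophages, and 3 of the 12 were at least 2-fold above all sorted young libraries. Among other genes of these cells, 7 of 20 further hair cell genes and 6 of 18 further stereocilia genes passed that fold. Supporting cell markers passed it for 1 of 12, and macrophage, Schwann cell, fibroblast and endothelial markers for none of theirs. The part of these cells in the result was not tested. With quantile normalization 12 members passed the fold (2.37% of all genes), and leaving out 1 sorted library gave 19 to 21.

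**Figure D2:**
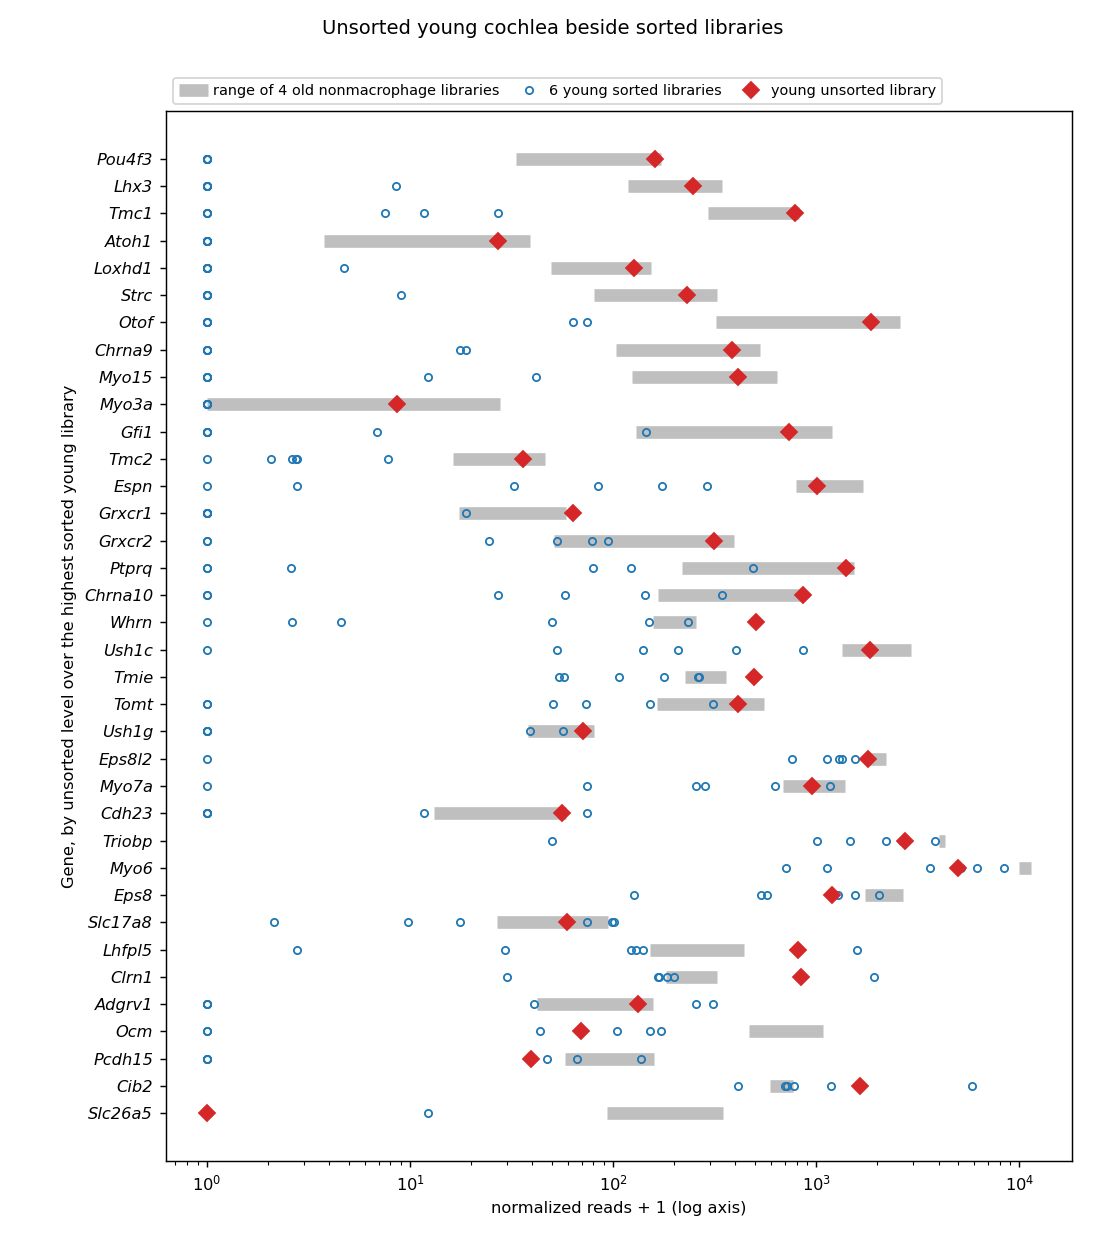
Normalized reads + 1 on a log axis for each member in the unsorted young library (diamond) and the 6 sorted young whole-cochlea libraries (circles), with the range of the 4 old nonmacrophage libraries as a bar, ordered by the unsorted level over the highest sorted one. Diamonds lie within the bar for 22 members, and Slc26a5 at the foot has no unsorted read.

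The second comparison asked which members differed between old and young nonmacrophages. Of the 36 members 11 were higher in old nonmacrophages and none lower by limma at an adjusted p under 0.05, where 1.64% of all genes were called higher and 0.0813% lower (no member was lower at an unadjusted p under 0.05 by limma or edgeR). They were Pou4f3, Gfi1, Lhx3, Otof, Slc26a5, Chrna9, Tmc1, Tmc2, Myo15, Strc and Loxhd1. Members had a median log2 difference of 3.16, against 0.39 over all genes tested, and 3.08 with the 3 members unread in young nonmacrophages set to their lower bound. Every old library was above all 4 young ones for 22 members, as for 12.0% of all genes. Differences are on the log2(value + 1) scale, which understates those of low genes.

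Pou4f3 had 58.4, 171, 111 and 32.4 normalized reads in old nonmacrophages and none in young ones, at least 23.4-fold higher (limma adjusted p = 0.0021). Such a bound puts 3 reads per library, as a mean over the group, in place of the unread values. It allows for counting error only, not for spread between libraries. The limma p beside such a bound is that of the log2(value + 1) difference and does not test the bound. A group without reads adds no spread to that fit. Pou4f3 entered the fit through its old libraries only, since no sorted young whole-cochlea library had a read of it. Lhx3 had 117, 341, 199 and 128 in old and 0, 0, 0 and 7.49 in young nonmacrophages, a log2 difference of 6.72 (SE 0.96, limma adjusted p = 0.0032). Gfi1 had 671, 1195, 674 and 128 in old and 0, 0, 144 and 5.88 in young, a log2 difference of 6.52 (SE 1.51, limma adjusted p = 0.049). The groups of Lhx3 did not overlap, and those of Gfi1 did, through young replicate 6 and old replicate 19. Atoh1, with 11.7, 37.9, 2.78 and 8.23 in old and no read in young nonmacrophages, did not pass (limma adjusted p = 0.1).

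Otof had 1212, 2580.1, 1360.2 and 321 normalized reads in old and 0, 0, 73.4 and 62.6 in young nonmacrophages, a log2 difference of 7.03 (SE 1.59, limma adjusted p = 0.044). Every old value was above every young one, with old replicate 19 the lowest of its group. The other inner hair cell gene did not follow: Slc17a8 had 46.7, 93.6, 31.7 and 25.8 in old and 97.8, 73.5, 99.5 and 16.6 in young, a log2 difference of −0.43 (SE 0.93) that did not pass, with overlapping groups.

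Slc26a5 had 346, 92.2, 202 and 140.5 in old and 0, 0, 0 and 11.2 in young nonmacrophages, a log2 difference of 6.54 (SE 1.02, limma adjusted p = 0.0056). Chrna9 had 302, 529, 507 and 102 in old and 0, 0, 17.9 and 16.6 in young, a log2 difference of 6.15 (SE 1.13, limma adjusted p = 0.015). The groups of both genes were apart. Ocm had 1074, 489, 936 and 468 in old and 42.7, 104, 171 and 150.3 in young, again with no overlap, but its log2 difference of 2.73 (SE 1.26) did not pass (limma adjusted p = 0.22). Chrna10 ranged from 165 to 858 in old and from 0 to 343 in young and did not pass.

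Tmc1 had 456, 818, 629 and 291 in old and 10.7, 0, 6.53 and 26.2 in young nonmacrophages, a log2 difference of 6.20 (SE 0.88, limma adjusted p = 0.003). Tmc2 (chromosome 2, 130195194 to 130264445, plus strand) had 19.7, 45.4, 34.5 and 15.4 in old and 1.78, 6.81, 1.63 and 1.07 in young, a log2 difference of 3.05 (SE 0.70, limma adjusted p = 0.047). Both channel subunits were higher in every old library than in any young one. The other 4 transduction genes did not pass; Tmie, which couples the channel to the tip link, had a log2 difference of 1.20, Lhfpl5 of 3.00, Cib2 of −0.10 and Tomt, needed to bring TMC proteins to the bundle, of 3.22.

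None of the 8 tip link and Usher genes passed, with log2 differences from 1.01 for Adgrv1, the ankle link receptor, to 3.39 for Whrn, the scaffold whirlin; edgeR called none of them either. Ush1c had 1806, 2924, 2129 and 1332 in old and 208, 51.8, 401 and 856 in young, with no overlap and a limma adjusted p of 0.19. Of the actin core genes only Myo15 passed: it had 255, 641, 635 and 123 in old and 0, 0, 40.8 and 11.2 in young, a log2 difference of 6.15 (SE 1.33, limma adjusted p = 0.037). Espn had 1231, 1705, 1672 and 793 in old and 1.78, 83.1, 173 and 290.4 in young, with groups apart and a limma adjusted p of 0.094. Grxcr2, a glutaredoxin-like stereocilia gene, had 217, 394, 380.4 and 49.9 in old and 0, 51.8 and 23.5 in young replicates 2, 5 and 14; old replicate 19 lay below young replicates 5 and 6, so the groups overlapped, and the gene did not pass (limma adjusted p = 0.2).

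Strc had 154, 322, 179 and 79.6 in old and 0, 0, 0 and 8.02 in young nonmacrophages, a log2 difference of 6.56 (SE 1.03, limma adjusted p = 0.0057). Loxhd1 (chromosome 18, 77281958 to 77442930, plus strand) had 130.4, 151, 152 and 48.3 in old and 0, 0, 0 and 3.74 in young, a log2 difference of 6.23 (SE 0.93, limma adjusted p = 0.0043). In both, young replicate 14 was the only young library with reads. Ptprq, a phosphatase of shaft connectors, had 441, 1540.2, 1003 and 216 in old and 78.2, 0, 121 and 1.60 in young and did not pass (limma adjusted p = 0.11).

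These calls turned on the tool. The edgeR test on recovered whole reads called no member (18 had an unadjusted p under 0.05) and 3 of all genes (0.0163%). DESeq2 called 13 members higher (2.80% of all genes), and limma with library quality weights 5 (0.889%). They also turned on which young libraries entered. With 1 young nonmacrophage library kept, the lone library was assumed to vary like the other groups, which supplied the spread. Replicate 14 alone, the young library of old-like depth, gave no call among the members by limma (14 had an unadjusted p under 0.05) and 8 over all genes (0.0435%), while the 11 members kept log2 differences of 3.72 to 6.30. Replicate 2 alone gave 22 members (19.6% of all genes), replicate 5 alone 15 (6.16%) and replicate 6 alone 9 (15.1%). Leaving out 1 library moved the share of all genes as well. The count was 7 without old nonmacrophage replicate 10 (0.898% of all genes), 6 without old nonmacrophage replicate 11 or 18 (0.904% each) or young nonmacrophage replicate 2 (0.879%), 18 without young macrophage replicate 9 (4.65%) or 15 (4.61%), and 16 without young nonmacrophage replicate 14 (12.3%). Among the 6 marker lists of other cell types 1 of 12 supporting cell genes (Tecta) and 1 of 10 macrophage genes (Cx3cr1) were higher in old nonmacrophages and no gene was lower. Supporting cell markers summed to 54811 to 70464 normalized reads in old and 63275 to 75515 in young nonmacrophages, so their sums overlapped. That sum was highest of all libraries in lateral wall nonmacrophages, at 125907. In every sorted library most of it came from Gjb2 and Gjb6, at 39640.5 and 71425 in lateral wall nonmacrophages, so it mainly describes these genes. Gene by gene, 10 of the 12 had a positive log2 difference, with a median of 1.05 against 0.39 over all genes. For Sox2 and Tecta every old library was above every young one. The part of supporting cells in the result was not tested.

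**Figure D3:**
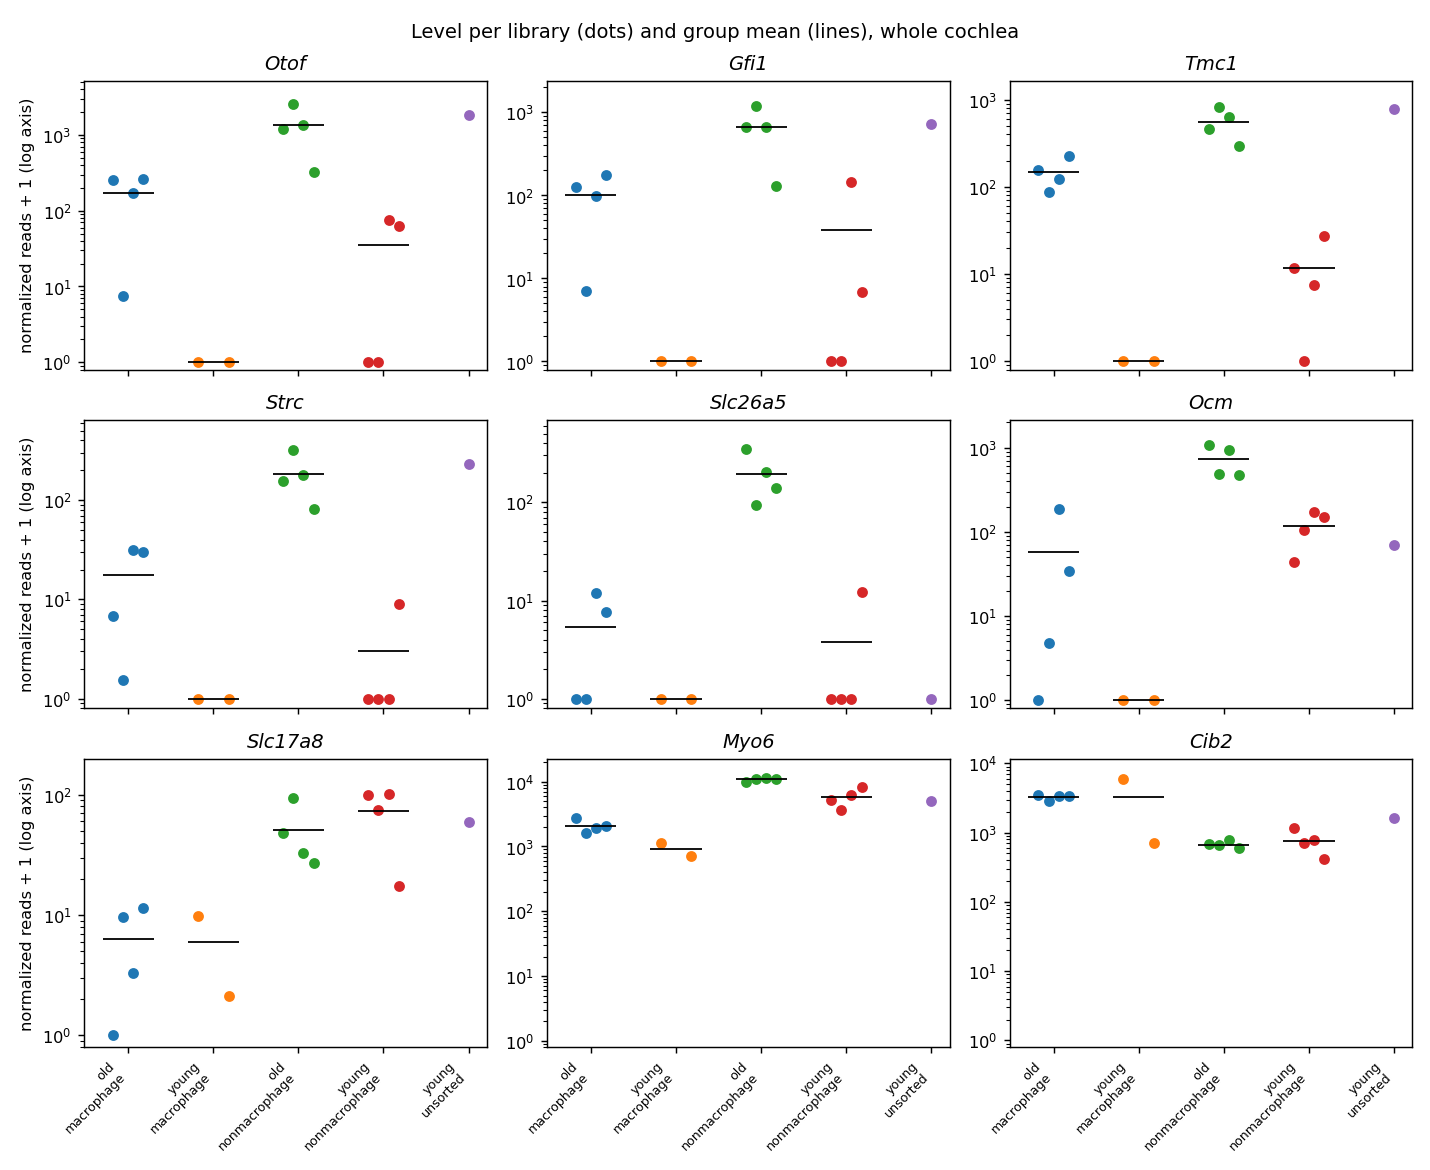
Normalized reads + 1 (log axis) of 9 members in each whole-cochlea library (dots), by group, with group means as lines; the unsorted group has 1 library. Otof, Gfi1, Tmc1 and Strc are high in old nonmacrophages and in the unsorted library, Slc26a5 and Ocm in old nonmacrophages only.

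The third comparison set old against young macrophages. In the old sort 14 members were higher and none lower by limma (edgeR: 11 higher, against 14.7% of all genes, and none lower; none lower at an unadjusted p under 0.05 by either tool), where 24.1% of all genes were called higher and 5.57% lower: Pou4f3, Gfi1, Lhx3, Otof, Chrna9, Tmc1, Cdh23, Ush1c, Ush1g, Adgrv1, Espn, Myo15, Myo6 and Grxcr1. The median log2 difference of members was 3.58, against 0.88 over all genes, and 3.29 over 35 members with the 17 unread in young macrophages at their lower bound. The comparisons of age and of the sort share their libraries. Every old macrophage library was above both young ones for 15 members, as for 32.2% of all genes.

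Otof had 253, 6.53, 172 and 259 normalized reads in old macrophages and none in young ones, at least 39.9-fold higher (limma adjusted p = 0.023). Tmc1 had 153, 86.0, 122 and 223 in old macrophages and none in young ones, at least 33.7-fold higher (limma adjusted p = 0.00036). Gfi1 had 126, 5.99, 98.6 and 173 in old macrophages and none in young ones, at least 23.3-fold higher (limma adjusted p = 0.029). Old replicate 7 was the lowest of its group for all 3 genes, by a wide gap for Otof and Gfi1. Young nerve macrophages had 4.96 of Otof, 1.65 of Tmc1 and 51.2 of Gfi1. The bounds against young macrophages allow for counting error only, and the 2 young libraries differed by more than that. In replicates 9 and 15 Eps8l2 had 0 and 1148 reads, and Ptprq had 279 and 0.

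Among Usher genes, Cdh23, which forms the upper part of the tip link, had 86.6, 50.6, 70.0 and 80.5 in old macrophages and none in young ones, at least 16.6-fold higher (limma adjusted p = 0.0071). Ush1g, the scaffold Sans, had 110.3, 45.2, 68.7 and 90.2 and none, at least 18.1-fold higher (limma adjusted p = 0.0079). Adgrv1 had 107, 29.4, 45.6 and 9.75 and none, at least 11.0-fold higher (limma adjusted p = 0.049). All 4 old macrophage libraries had reads of these 3 genes, with replicate 7 lowest for Cdh23 and Ush1g and replicate 17 lowest for Adgrv1. The young libraries compared are of whole cochleae. Young nerve macrophages had 296 of Cdh23, above every old macrophage library, and 61.1 of Ush1g and 82.6 of Adgrv1, within the old ranges. Young lateral wall macrophages had 1.53 of Cdh23 and no read of Ush1g or Adgrv1. Ush1c had 362, 86.5, 553 and 492 in old and 0 and 139 in young macrophages, a log2 difference of 4.69 (SE 1.56, limma adjusted p = 0.038), with young replicate 15 above old replicate 7.

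Grxcr1, a glutaredoxin-like gene of stereocilia growth, had 36.6, 23.4, 71.4 and 88.4 in old macrophages and none in young ones, at least 12.7-fold higher (limma adjusted p = 0.0032). Espn had 314, 174, 201 and 280.4 in old and 0 and 31.6 in young macrophages, a log2 difference of 5.37 (SE 1.62, limma adjusted p = 0.025). Myo6 (chromosome 9, 80165031 to 80311729, plus strand) had 2762, 1616, 1922 and 2083 in old and 1129 and 706 in young, a log2 difference of 1.20 (SE 0.32, limma adjusted p = 0.014). In each the old libraries were all above the young ones. The smallest bounds among the 14 were those of Pou4f3 and Lhx3, at least 3.59-fold and 6.95-fold, with Chrna9 at least 9.79-fold and Myo15 at least 12.3-fold higher. Slc26a5, Ocm, Pcdh15, Strc and Loxhd1 had reads in 2 to 4 old macrophage libraries and none in young ones and did not pass by limma; edgeR called Pcdh15 and Ocm higher, and DESeq2 called all of these but Slc26a5. Grxcr2 had 59.0, 66.4, 79.7 and 219 in old and 0 and 77.9 in young macrophages and did not pass (limma adjusted p = 0.18), and Atoh1 and Myo3a were read in 1 old macrophage library.

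Markers of other cells also differed between old and young macrophages, some lists upward like the members and some downward. Of 12 spiral ganglion neuron markers 2 were higher in old macrophages and none lower. In old macrophages 7 of 12 supporting cell markers and 6 of 8 Schwann cell markers were higher and none lower, as were 3 of 8 fibroblast markers, and 3 of 10 macrophage markers and 3 of 8 endothelial markers were lower and none higher. Supporting cell markers summed to 18396 to 27467 normalized reads in old macrophages and to 9122 and 20042 in young ones, with Prox1, Otog, Otogl, Tecta and Tectb unread in both young libraries. Macrophage markers summed to 196280 to 329531 in old and to 803721 and 977516 in young macrophages. Endothelial markers summed to 5835 to 7132 in old and to 28413 and 29959 in young macrophages. Fibroblast markers summed to 16186 to 25933 in old and to 29108 and 33522 in young ones, so their sum was lower although 3 of them were called higher. The part of these cells, and of the sparse young libraries, in the result was not tested. With quantile normalization, which moved the median of all genes from 0.88 to −0.07, 2 members were higher (Myo6 and Tmc1, against 12.4% of all genes) and 1 lower (Slc17a8, against 12.3%), and the calls over all genes went from 4441 higher and 1027 lower to 2292 and 2277. With library quality weights limma called no member (1.96% of all genes higher), and 3 had an unadjusted p under 0.05. The count was 8 without old macrophage replicate 1 (19.3% of all genes) or 12 (18.9%) and 7 without old macrophage replicate 17 (18.8%) or young macrophage replicate 9 (18.7%).

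The next comparison was that of the sorts at each age, to ask in which sort hair cell transcripts lay. In the old cochlea 9 members were lower in macrophages by limma (9.36% of all genes) and 1 higher (9.25%). The lower ones were Pou4f3, Lhx3, Slc17a8, Slc26a5, Ocm, Tmc2, Myo6, Strc and Loxhd1, and the higher one was Cib2. The median log2 difference of members was −2.10, against −0.19 over all genes. Every old nonmacrophage library was above all 4 old macrophage libraries for 20 members (29.8% of all genes), and the reverse held for Lhfpl5, Cib2 and Clrn1 (23.1%).

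The largest differences of these 9 were those of the outer hair cell genes Slc26a5 and Ocm. Slc26a5 had 0, 0, 11.1 and 6.71 in old macrophages and 346, 92.2, 202 and 140.5 in old nonmacrophages, a log2 difference of −5.81 (SE 1.02, limma adjusted p = 0.0016). Ocm had 0, 3.81, 187 and 33.5 in old macrophages and 1074, 489, 936 and 468 in nonmacrophages, a log2 difference of −5.71 (SE 1.26, limma adjusted p = 0.007). In both, macrophage replicate 12 was the highest of its group and still below every nonmacrophage. Chrna9 and Chrna10 were also lower in each macrophage library but did not pass.

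Of the inner hair cell genes, Slc17a8 had 0, 8.71, 2.30 and 10.4 in old macrophages and 46.7, 93.6, 31.7 and 25.8 in nonmacrophages, a log2 difference of −3.35 (SE 0.93, limma adjusted p = 0.023). Otof had 253, 6.53, 172 and 259 and 1212, 2580.1, 1360.2 and 321, with groups apart but a limma adjusted p of 0.16. Strc had 5.77, 0.544, 30.4 and 29.3 in macrophages, a log2 difference of −4.04 (SE 1.03, limma adjusted p = 0.015), and Loxhd1 had 3.85, 0, 14.7 and 20.7, a difference of −4.12 (SE 0.93, limma adjusted p = 0.0076). Pou4f3, Lhx3 and Tmc2 fell by 2.86, 3.22 and 2.34 on the log2 scale (limma adjusted p = 0.032, 0.033 and 0.033).

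Myo6 had 2762, 1616, 1922 and 2083 in old macrophages and 9956, 11169.7, 11364 and 11004 in nonmacrophages, a log2 difference of −2.40 (SE 0.26, limma adjusted p = 5e-05). Cib2 (chromosome 9, 54544794 to 54560218, minus strand) went the opposite way, with 3452, 2851, 3433 and 3387 in old macrophages and 679, 651, 769.6 and 589 in nonmacrophages, a log2 difference of 2.29 (SE 0.51, limma adjusted p = 0.0069). Every macrophage library was above every nonmacrophage library for Cib2. Clrn1 (clarin-1, an Usher membrane protein) had 891, 812, 941 and 1222 and 255, 323, 317 and 181, and Lhfpl5 had 561, 548, 589 and 894 and 312, 442, 287 and 151; both had groups apart and did not pass (limma adjusted p = 0.094 and 0.55).

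The macrophage sort of these cochleae also held neuron transcripts. The 12 spiral ganglion neuron markers summed to 300895 to 415981 normalized reads in old macrophages and to 9960 to 17096 in old nonmacrophages, and 9 of 12 were higher and none lower. Fibroblast markers were lower for 8 of 8, Schwann cell markers for 7 of 8 and endothelial markers for 4 of 8, and supporting cell markers were lower for 3 of 12 and higher for 1. The part of neurons in the higher Cib2, Clrn1 and Lhfpl5 values was not tested. With library quality weights 22 members were lower (34.8% of all genes) and 4 higher (25.7%), and in a fit of the 2 groups alone 21 were lower (33.4%) and 5 higher (24.9%). The edgeR test called 2 lower (Slc26a5 and Myo6, against 7.23% of all genes) and 1 higher (Cib2, against 8.80%). The count of lower members was 5 without old nonmacrophage replicate 10 (6.25% of all genes) or 11 (6.23%), and 2 members were higher without young macrophage replicate 9 or 15 (13.1% each) or young nonmacrophage replicate 14 (10.4%).

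In the young cochlea 7 members were lower in macrophages by limma (22.3% of all genes) and 1 higher (9.18%), so the count of lower members was near the background. The lower ones were Slc17a8, Ocm, Pcdh15, Ush1c, Adgrv1, Eps8l2 and Myo6, and the higher one was Clrn1. The median log2 difference was −1.29, against −0.61 over all genes, and −1.58 over 29 members with 11 unread in young macrophages at their bound. It was 0.47 after quantile normalization, against 0.08 over all genes, so the median changed sign with the scaling.

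Ocm had no read in young macrophages and 42.7, 104, 171 and 150.3 in young nonmacrophages, so it was at least 27.0-fold higher in nonmacrophages (limma adjusted p = 0.0055). Adgrv1 had none and 0, 309, 256 and 39.6, at least 34.9-fold higher in nonmacrophages (limma adjusted p = 0.038). Pcdh15, the lower part of the tip link, had none and 46.2, 136, 0 and 65.2, at least 14.3-fold higher (limma adjusted p = 0.034). Nonmacrophage libraries without a read, replicate 2 for Adgrv1 and replicate 6 for Pcdh15, overlapped with the macrophages. These bounds too allow for counting error only, not for spread between libraries.

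Myo6 had 1129 and 706 in young macrophages and 5144, 3616, 6218 and 8372 in nonmacrophages, a log2 difference of −2.64 (SE 0.32, limma adjusted p = 3.6e-05), against −2.40 in the old cochlea. Slc17a8 had 8.78 and 1.13 and 97.8, 73.5, 99.5 and 16.6, a log2 difference of −3.72 (SE 1.14, limma adjusted p = 0.025), and its sign turned under quantile normalization (0.90). Clrn1 had 1922 and 199 in macrophages and 165, 168, 183 and 28.9 in nonmacrophages, a log2 difference of 2.48 (SE 0.88, limma adjusted p = 0.048). Both macrophage values of Clrn1 were above all nonmacrophages, and that of replicate 9 was far above. Eps8l2 had 0 and 1296 and 1127, 763, 1339.5 and 1557, and its log2 difference of −5.01 rested on macrophage replicate 9: without it the value was 0.16.

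Calls in the young cochlea depended on the fit. With library quality weights limma called no member (3 lower at an unadjusted p under 0.05), against 2.94% of all genes lower and 0.179% higher. A fit of the 2 groups alone called 2 lower (6.60% of all genes) and none higher (2.07%). The edgeR test called 5 lower (17.2%) and 3 higher (9.63%), and DESeq2 called 13 lower (25.2%) and 3 higher (12.5%). The count of lower members was 4 without old macrophage replicate 7 or 12, any 1 old nonmacrophage library or young nonmacrophage replicate 6 (at least 19.7% of all genes), and 3 without young macrophage replicate 9 (17.7%) or young nonmacrophage replicate 14 (18.3%). The higher call of Clrn1 was lost without young macrophage replicate 9, young nonmacrophage replicate 5 or 14, or any 1 old library. The count of higher members was 3 without young macrophage replicate 15 (13.3% of all genes) and 2 without young nonmacrophage replicate 6 (8.91%). With quantile normalization 2 members were higher (12.8% of all genes) and 3 lower (15.2%), and the calls over all genes went from 1693 higher and 4121 lower to 2361 and 2797. Neuron markers were higher in young macrophages for 8 of 12, and fibroblast and Schwann cell markers were lower for 8 of 8 each, supporting cell markers for 7 of 12 and endothelial markers for 2 of 8.

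**Figure D4:**
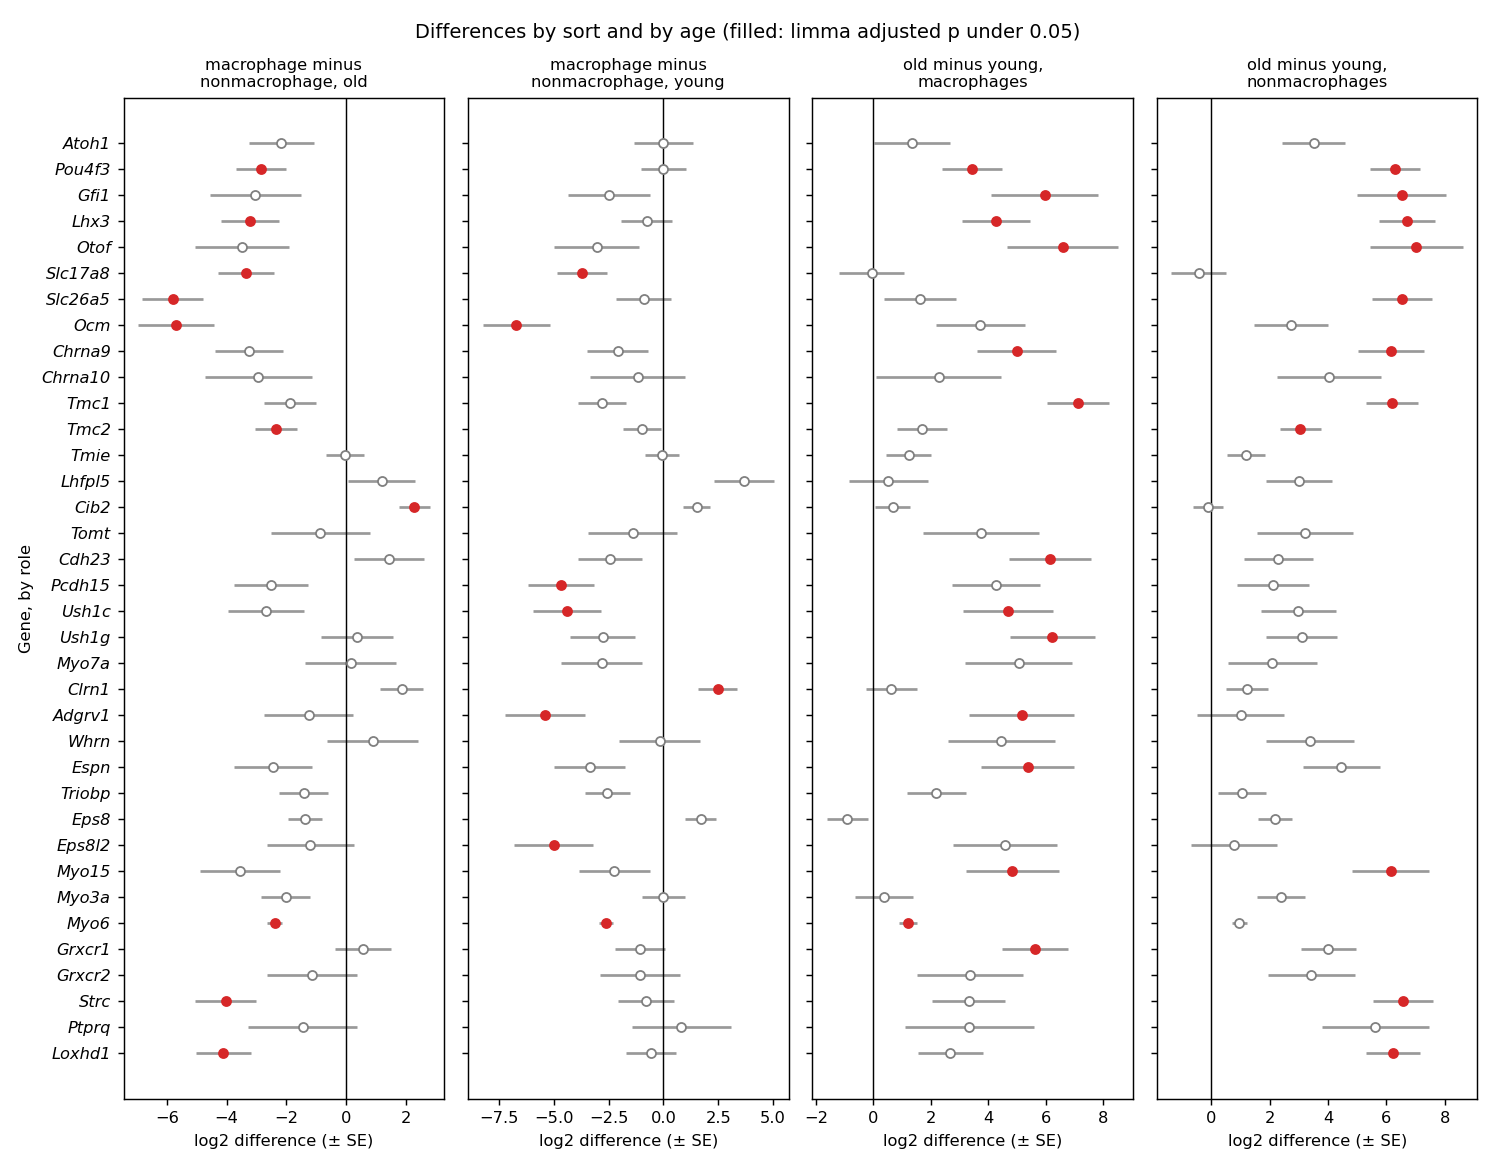
Log2 difference (dot) with its standard error (line) for each member in 4 comparisons of sorted whole-cochlea libraries; filled dots have a limma adjusted p under 0.05. Age differences lie mostly right of 0, with 14 and 11 members called, and sort differences mostly left of 0; the called members right of 0 are Cib2 in the old and Clrn1 in the young cochlea.

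Whether the age difference itself differed between the sorts was tested as an interaction. No member passed by limma (3 lower and none higher at an unadjusted p under 0.05) or by edgeR (4 higher and 1 lower at an unadjusted p under 0.05), where limma called 6.98% of all genes higher and 0.954% lower and edgeR 7.17% and 0.765%. DESeq2 called Cdh23, Ush1g and Adgrv1 higher (13.2% of all genes) and Eps8 lower (2.95%). Without young macrophage replicate 15, 4 members were higher (24.5% of all genes). In fits without young macrophage replicate 9 (10.6%) or young nonmacrophage replicate 2 (8.65%) or 6 (7.86%), 1 was higher. In fits without young macrophage replicate 9 (2.99%) or young nonmacrophage replicate 6 (1.11%) 1 was lower, and without young nonmacrophage replicate 14 (1.98%) 2 were. The sets of members called with age in the 2 sorts were therefore not shown to differ.

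Replicates of the old groups differed widely in these genes. Among old nonmacrophages, replicate 11 alone was the highest for 25 of 36 members, as for 28.9% of all genes, and replicate 19 alone the lowest for 28, as for 25.8%. Among old macrophages, replicate 7 alone was the lowest for 23 members (23.8% of all genes) and replicate 17 alone the highest for 16 (31.4%). Each library is 1 mouse. Triobp, which bundles actin in the rootlet, ranged only from 3998 to 4282 normalized reads in old nonmacrophages.

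Of the outer hair cell genes, Chrna9 and Chrna10 were highest in old nonmacrophage replicate 11 and lowest in replicate 19. Slc26a5 and Ocm were highest in old nonmacrophage replicate 10, and replicate 11, the highest for Otof, Gfi1, Tmc1 and Strc, was the lowest for Slc26a5. Per kilobase of exon, Otof stood at 1.45, 11.6, 2.78 and 0.943 times Slc26a5 in old nonmacrophage replicates 10, 11, 18 and 19. Against Ocm, Otof stood at 0.103, 0.484, 0.133 and 0.063 times per kilobase in these libraries and at 2.48 times in the unsorted library. Among these 4 libraries the ratio of Otof to prestin transcripts was highest in replicate 11, and the unsorted young cochlea had the highest ratio of Otof to Ocm of the 5 libraries. In old macrophages, where prestin reads were few, Otof stood at 6.43 and 16.0 times Slc26a5 per kilobase in replicates 12 and 17, and no ratio can be given for the unsorted library, which had no read of Slc26a5. These ratios are of single genes in single libraries and have no test.

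**Figure D5:**
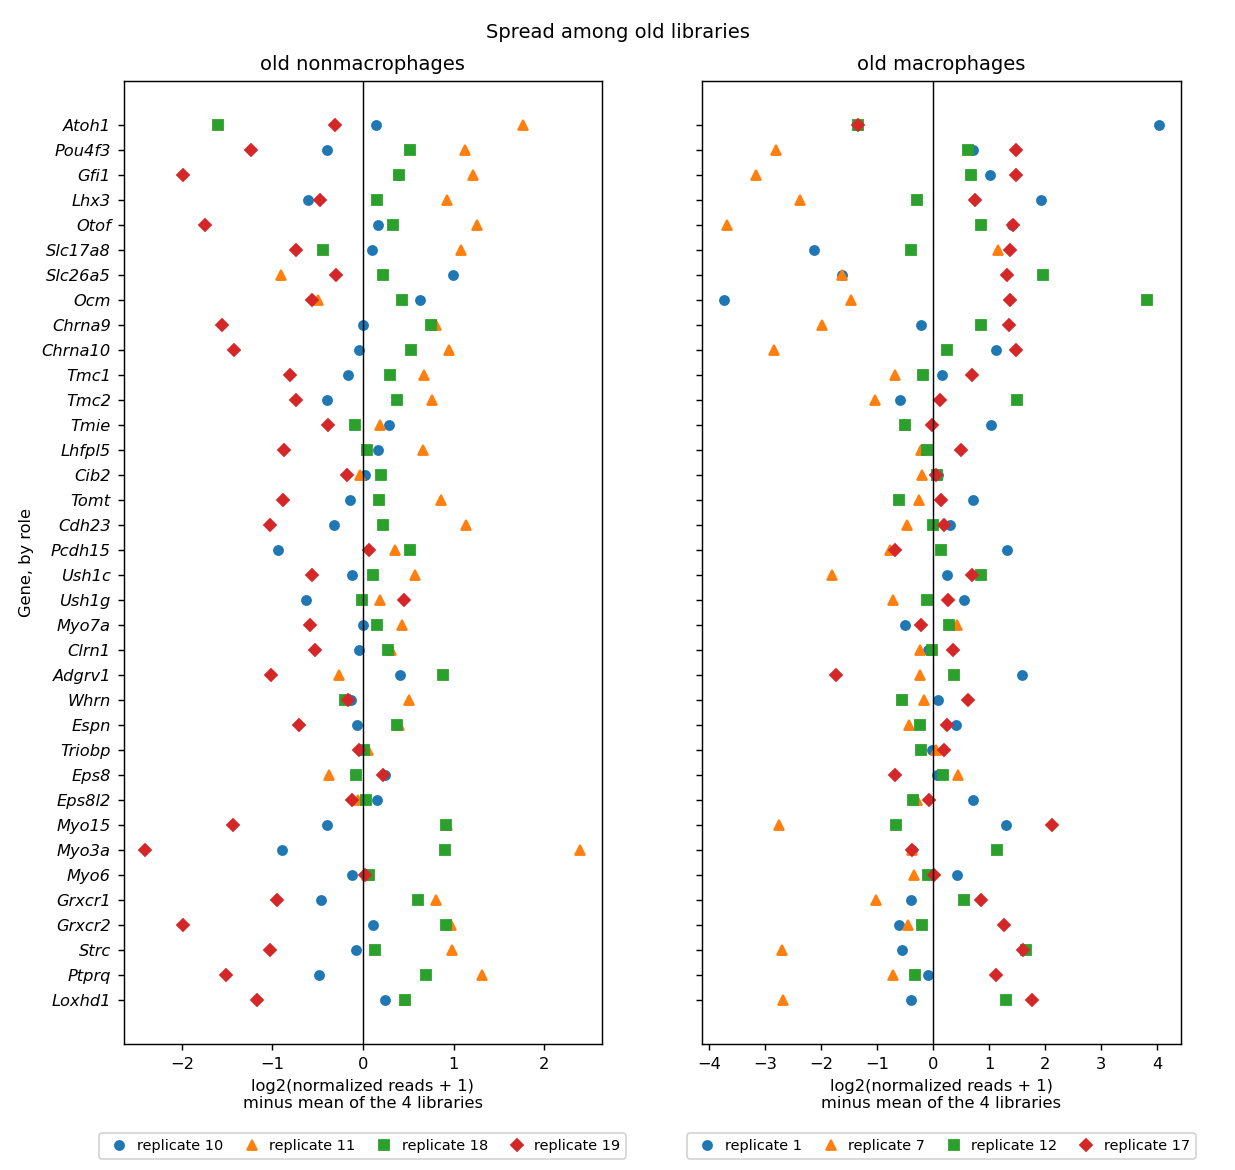
Log2(normalized reads + 1) of each member in the 4 old nonmacrophage (left) and 4 old macrophage libraries (right), minus the mean of the 4. Replicate 11 lies at the right edge for 25 members and replicate 19 at the left edge for 28, and replicate 7 of the macrophages lies at the left edge for 23.

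Dissected parts of the young cochlea gave 1 library per sort and no test. In the auditory nerve 31 members had reads in nonmacrophages and 22 in macrophages, and in the lateral wall 25 and 14. Nerve nonmacrophages had 715 normalized reads of Gfi1, 310.5 of Otof, 197 of Chrna9, 148 of Ocm and 42.0 of Slc26a5. Gfi1, Otof, Chrna9 and Slc26a5 were above the 4 young whole-cochlea nonmacrophage libraries, and Ocm lay among them. Lateral wall nonmacrophages had 289 of Gfi1, 91.8 of Otof and 9.18 of Ocm, and no read of Slc26a5 or Chrna9. Nerve macrophages had 296 of Cdh23, the highest value of that gene in any library, and no read of Pou4f3, Ocm, Chrna9 or Strc.

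Other genes of the same cells were followed in 2 further lists, chosen for their roles, with the share of all genes given beside each count. Of 21 other hair cell genes 8 were higher (24.1% of all genes) and none lower (5.57%) in old than in young macrophages, led by Strip2 (log2 difference 9.02, SE 1.02, limma adjusted p = 3.2e-05), Elmod1 (9.10, SE 1.41) and Ikzf2 (6.01, SE 1.03), the factor Helios of outer hair cells. Both young whole-cochlea macrophage libraries had no read of these 3 genes. The size of every log2 difference given here against those libraries, the interactions included, therefore depends on the added 1. Young nerve macrophages had 159 of Strip2, 140 of Elmod1 and 23.1 of Ikzf2. Young lateral wall macrophages had 4.59 of Ikzf2 and no read of Strip2 or Elmod1. In old against young nonmacrophages 1 was higher, Kncn (6.03, SE 1.37, limma adjusted p = 0.045; 1.64% of all genes), and none lower. Both Strip2 and Ikzf2 had an interaction that passed, with log2 differences of 7.09 and 6.69 between the age differences of the sorts (limma adjusted p = 0.0039 and 0.0059; 6.98% of all genes). In the old sort 3 were higher in macrophages (9.25% of all genes) and 2 lower (Fgf8 and Tbx2, named after their values were seen; 9.36%), both counts near the share of all genes. The higher ones were the calcium buffers Calb2 (4.82, SE 0.56), Pvalb (3.65, SE 0.50) and Calb1 (4.07, SE 1.21), with limma adjusted p of 8.2e-05, 0.00026 and 0.033. In the young sort the same 3 buffers were higher (9.18% of all genes), Pvalb with a log2 difference of 2.95 (SE 0.61, limma adjusted p = 0.0026), and 4 genes were lower (22.3%), led by Ikzf2 (−7.67, SE 1.03) and Strip2 (−5.62, SE 1.02), with limma adjusted p of 8.6e-05 and 0.001. All 3 buffers are also made by spiral ganglion neurons, whose markers moved the same way, and the part of neurons was not tested.

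The list called other stereocilia genes held 18 genes measured, and the place of each product in stereocilia was not checked. Of these 18 genes 10 were higher (24.1% of all genes) and 2 lower (Twf2 and Clic5, against 5.57%) in old than in young macrophages. Pls1, the actin bundler plastin-1, had 1338, 988, 1003 and 1412 in old and 1.76 and 0 in young macrophages, a log2 difference of 9.46 (SE 0.46, limma adjusted p = 5.3e-08). Tmprss3, a transmembrane protease, had 511, 276, 569 and 307 in old macrophages and none in young whole-cochlea ones. Gpsm2, which sets the length and orientation of the bundle, had 118, 137, 82.0 and 90.8 and none. Young macrophages of dissected tissue differed from those of whole cochleae. Nerve macrophages had 646 of Gpsm2 and 154 of Pls1, and lateral wall macrophages had 974 and 76.6. Gpsm2 was thus higher in both than in any old macrophage library, and Tmprss3 was unread in both. Log2 differences of Tmprss3 and Gpsm2 against the unread young whole-cochlea macrophages also depend on the added 1. All 3 genes were read in every nonmacrophage library, and all 3 had an interaction that passed, with log2 differences of 7.55 for Pls1, 7.09 for Tmprss3 and 5.57 for Gpsm2 between the age differences of the sorts (limma adjusted p = 6.6e-06, 3.4e-05 and 0.0013; 6.98% of all genes). In old against young nonmacrophages Espnl, an espin relative, and Pls1 were higher, with log2 differences of 6.62 (SE 1.19, limma adjusted p = 0.013) and 1.91 (SE 0.38, limma adjusted p = 0.022; 1.64% of all genes), and none was lower. In the old sort 6 were lower in macrophages (9.36% of all genes) and 1 higher (9.25%), the lower ones led by Clic5 (−2.78, SE 0.35), Tmprss3 (−2.34, SE 0.45) and Rdx (−0.95, SE 0.18). In the young sort 6 were lower (22.3%) and 1 higher (9.18%), the lower ones led by Pls1 (−8.97, SE 0.46), Tmprss3 (−9.44, SE 0.55) and Gpsm2 (−7.83, SE 0.69), with limma adjusted p of 3.3e-08, 6.6e-08 and 2e-06. The higher gene was Twf2 at both ages, named after its values were seen.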

How the data were processed

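RNA of 19 libraries of sorted or unsorted mouse cochlear cells was sequenced after SMARTer Ultra amplification and Nextera XT preparation on an Illumina HiSeq instrument, per the labels' protocols. The submitters' processing notes name mm10, TopHat2, Partek and DESeq2 without roles or versions. The authors deposited 1 signal per gene and library, a normalized read value: whole reads divided by 1 factor per library. Reads were recovered from these steps, with 99.9% of values whole within 0.1 read. The authors' deposited p-values and fold changes were not used, and no sample column was left unmapped.

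The 36 members were matched by symbol, and members and lists were chosen with earlier results of these data known. Genes with a value of at least 1 in 2 of the 14 sorted whole-cochlea libraries entered limma 3.58.1 (R 4.3.3) on log2(value + 1), with 4 group means, an intensity trend, robust variance and Benjamini-Hochberg adjustment over 18441 genes at 0.05; all 36 members passed the filter. The alternatives were edgeR 4.0.16 and DESeq2 1.42.0 on the recovered counts, other pseudocounts, filters, scalings and weights, leaving out each library and, chosen after seeing the data, keeping 1 young nonmacrophage library. No pair of replicates looked like 1 library deposited again: their reads differed with a chi-square of 48.7 to 884 for each degree of freedom. Depth was 20.6 to 71.6 M reads, and a floor of 3 reads, for counting error only, stands for an unread gene. The text names every member, and from the 2 further lists the 3 called genes with the smallest adjusted p in each comparison. Lengths are of exons in GENCODE's mm10 annotation. Python 3.11.15 drew the figures.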

Additional observations from a re-analysis of the deposited data

Results flagged for a closer look

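In groups of 4 libraries, a member's highest or lowest library was singled out where its gap to the nearest other library exceeded 0.829 of the whole range of the group (Dixon's critical value). This happened in 13 of 105 groups tested. In 7 of these the other 3 libraries had no read, so that the gap is 1.000 of the range by construction, whatever the value of the fourth. Of the other 98 groups 6 stood out, and chance gives about 1 in 20.

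Young nonmacrophage replicate 14, the deepest young library, stood apart for 5 members. It was the only one of its group with reads for Lhx3 (7.49 normalized reads, gap 1.000 of the range), Slc26a5 (11.2, gap 1.000), Strc (8.02, gap 1.000) and Loxhd1 (3.74, gap 1.000). For Clrn1 it was the lowest, at 28.9 against 165 to 183 (gap 0.945). Depth stood apart in the same library, and its part in these values was not tested. Grxcr1 was read only in young nonmacrophage replicate 6 (17.9, gap 1.000).

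Among old macrophages, replicate 7 was far below the others for Otof, at 6.53 against 172 to 259 (gap 0.885), and below them for Cib2, at 2851 against 3387 to 3452 (gap 0.900). Replicate 17 was above the others for Lhfpl5, at 894 against 548 to 589 (gap 0.853). Atoh1 was read only in replicate 1 (40.4, gap 1.000) and Myo3a only in replicate 12 (1.84, gap 1.000).

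Among old nonmacrophages, replicate 11 was highest for Whrn, at 256 against 156 to 164 (gap 0.900), and replicate 19 was lowest for Loxhd1, at 48.3 against 130.4 to 152 (gap 0.864).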

How the results depend on the processing

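Counts of members are compared with 9 lower and 1 higher in macrophages of the old cochlea, 7 lower and 1 higher in the young cochlea, 14 higher in old macrophages, 11 higher in old nonmacrophages, none in the interaction and 19 for the unsorted library. Not every setting is listed here. In the old cochlea, quantile normalization gave 2 higher and 12 lower, and library quality weights 4 higher and 22 lower. A fit of only the groups compared gave 5 higher and 21 lower, edgeR 1 higher and 2 lower, and DESeq2 2 higher and 11 lower. A pseudocount of 0.1 gave 1 higher and 3 lower, and leaving out 1 library gave 1 to 2 higher and 5 to 13 lower. In the young cochlea, a pseudocount of 10 gave 2 higher and 3 lower, quantile normalization 2 and 3, and quality weights 0 and 0. Only the groups compared gave 0 higher and 2 lower, edgeR 3 and 5, and DESeq2 3 and 13. Leaving out 1 library of the series gave 0 to 3 higher and 3 to 7 lower in the young cochlea. There Slc17a8 reversed to 0.90 under quantile normalization, and Eps8l2 ranged from −10.18 without young macrophage replicate 15 to 0.16 without replicate 9. In old macrophages, a pseudocount of 10 gave 7 higher, quantile normalization 2 higher and 1 lower, and quality weights 0; leaving out 1 library gave 7 to 16. In old nonmacrophages, a pseudocount of 0.1 gave 7, quantile normalization 7, quality weights 5, only the groups compared 6 and edgeR 0, and 1 young library alone, alternatives chosen after seeing the data, 0 with replicate 14 and 22 with replicate 2; leaving out 1 library gave 6 to 18. In the interaction, DESeq2 gave 3 higher and 1 lower, a pseudocount of 10 2 lower and quantile normalization 3 lower; leaving out 1 library gave 0 to 4 higher and 0 to 2 lower. The unsorted count was 12 under quantile normalization. The cause of these changes was not tested. Shares of all genes called higher or lower were given above for only some of these settings, and for none of the pseudocounts. Without that share, a change in the members cannot be told apart from a change in all calls.

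Over all genes, the old cochlea gave 3431 calls, 11167 with quality weights and 10654 with only the groups compared; the young cochlea 5814, 575 and 1426; old against young macrophages 5468, and 362 with quality weights. Old against young nonmacrophages gave 318, 89 with quantile normalization, 190 with quality weights, 175 with only the groups compared, 3 with edgeR, 1645 with DESeq2 and 8 with replicate 14 alone. The interaction gave 1464, 638 with quantile normalization, 148 with quality weights and 2978 with DESeq2, and could not be fitted on only the groups compared, since it needs all 4. Leaving out 1 library gave 2369 to 5477 calls for the old sort, 5028 to 7984 for the young sort, 4206 to 8490 for old against young macrophages, 167 to 3562 for old against young nonmacrophages (3562 without young nonmacrophage replicate 14) and 1116 to 5369 for the interaction, so the shares of all genes printed beside the counts move with the libraries too. Detection of genes with few reads is limited by depth. The 2 young macrophage libraries had reads in 11652 and 13532 genes at 25.4 and 35.1 M reads. The unsorted library had reads in 17468 genes at 20.6 M reads. The cause of the sparse young macrophage libraries was not tested. No paired analysis was possible because the libraries are numbered 1 to 19 through the series, so that the groups share no number; the labels do not say whether both sorts of an age came from the same mice.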
